A study of Mus musculus with 3 samples.

Results

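Id1, Id2, Id3, Id4, Hes1 and Hes5 are the genes of the Id and Hes families tied to stem cell quiescence, and they were taken by name from the count tables of 3 single-cell libraries of mouse dentate gyrus. All 6 genes were listed in all 3 tables, out of 15535 genes listed in at least 1. The runner library came from mice that had a running wheel for 12 days and were littermates of the 8-week-old controls. The aged library came from mice at 14 months without a wheel. The control library came from mice at 8 weeks in standard housing. The labels give the strain of all 3 as hGFAP-eGFP, a line whose reporter follows the human promoter of the astrocyte and stem cell gene GFAP, whereas the series text writes WT mice and mentions the reporter at 14 months only. All 3 tissues were dissociated with trypsin, and no sort on the reporter is described. How many mice went into each library is not stated in the labels. With 1 library per group there is no replicate, so no p-value is given, and every interval covers counting error only.

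Id proteins are helix-loop-helix factors that lack the basic, DNA-binding region. They pair with the E proteins that proneural factors need, and so hold these factors off DNA. Their genes are textbook targets of BMP signalling. Hes1 and Hes5 are basic helix-loop-helix repressors that Notch signalling turns on through RBPJ, and they silence proneural genes such as Neurog2. In the adult dentate gyrus both families are known for holding radial glia-like stem cells in quiescence, and mature astrocytes share much of this expression.

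The tables held 3328 runner, 2421 aged and 2356 control barcodes, with 3808360, 2537567 and 2330698 unique molecular identifiers (UMIs, each counting 1 captured mRNA molecule). Mitochondrially encoded UMIs made up a median of 42.9% per barcode in the runner library, 46.3% in the aged library and 36.6% in the control library. Barcodes with at least 200 genes and under 10% such UMIs, less 10 doublet calls, left 963 runner, 391 aged and 512 control cells. Clustering that did not use the 6 genes gave 240 astrocyte-like cells, 124 in the runner library, 52 in the aged library and 64 in the control library. Levels are given as CPM, the gene's UMIs in a class and library, per 1000000 UMIs of all genes there. All 15 astrocyte markers were detected in the astrocyte-like cells and summed to 30247 CPM in the runner library, 28709 CPM in the aged library and 28797 CPM in the control library. Markers of other cells were present at lower sums. The 11 precursor markers summed to 1855, 1579 and 1818 CPM, of which Ptprz1 gave 301 of 326, 109 of 123 and 142 of 158 UMIs, and Olig1 had 21, 4 and 7. Neuroblast markers summed to 973, 642 and 725 CPM, endothelial markers to 700, 372 and 644 CPM, mostly Bsg, and cycling markers to 108, 103 and 69.0 CPM. The defining Pdgfra of precursors, Cldn5 of endothelium, Dcx of neuroblasts and Mki67 of cycling cells were at 0 UMIs. No cluster met the naming rule for neural stem cells, so radial glia-like cells and mature astrocytes were counted together. Microglia-like (798), neuroblast-like (216), oligodendrocyte-like (210), Cajal-Retzius-like (153), granule neuron-like (103) and oligodendrocyte precursor-like (OPC-like, 74) cells also had at least 10 cells in each library. Of the cells used, 2 barcodes occurred in both the runner and the aged library.

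Id1 lies on chromosome 2 at 152736251 to 152737410, plus strand, and Id2 on chromosome 12 at 25093799 to 25097140, minus strand. Id3 lies on chromosome 4 at 136143497 to 136145755, plus strand, and Id4 on chromosome 13 at 48261228 to 48266026, plus strand. Hes1 lies on chromosome 16 at 30064384 to 30067796, plus strand, and Hes5 on chromosome 4 at 154960923 to 154962371, plus strand (GRCm38, GENCODE vM21). Id4 overlaps the minus-strand genes A330033J07Rik and Gm49291, and Hes5 overlaps the minus-strand Gm20421. Whether counting used strand is not stated in the labels, so reads of these partners cannot be told apart from those of Id4 and Hes5.

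Promoter windows of 250 bases before to 50 bases after the start were found in RefSeq (GRCm38.p6) for 4 of the 6 genes, Id2, Id3, Id4 and Hes5. Only for Hes5 is that start the one of the gene given above. The Id3 window and the Id2 window (chr12:25096043-25096342) lie inside their genes as given above. The Id4 window ends at 48261165, before its gene. Those of Hes5 and Id3 are shown because both genes were led by astroglia while their windows differ most in the letters searched. Capitals mark TGGGAA, the core bound by RBPJ, on either strand, and the palindrome GGCGCC, known from BMP response elements.
Hes5 (chr4:154960673-154960972, plus strand): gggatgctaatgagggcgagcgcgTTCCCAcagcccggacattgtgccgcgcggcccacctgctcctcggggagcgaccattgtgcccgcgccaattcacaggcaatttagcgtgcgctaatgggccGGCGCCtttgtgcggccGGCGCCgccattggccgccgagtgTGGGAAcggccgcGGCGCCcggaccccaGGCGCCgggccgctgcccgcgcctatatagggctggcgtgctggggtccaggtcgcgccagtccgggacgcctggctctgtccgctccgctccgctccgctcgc
Id3 (chr4:136143572-136143871, plus strand): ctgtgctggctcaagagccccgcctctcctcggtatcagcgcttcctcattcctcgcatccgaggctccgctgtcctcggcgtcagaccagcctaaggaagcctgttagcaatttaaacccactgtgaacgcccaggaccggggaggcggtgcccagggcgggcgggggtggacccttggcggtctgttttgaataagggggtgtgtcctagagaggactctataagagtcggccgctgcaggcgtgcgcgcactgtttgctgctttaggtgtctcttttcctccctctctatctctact
The Hes5 window holds TGGGAA at 2 places, starting at bases 25 (minus strand) and 169 (plus strand), each within the longer GTGGGAA. It holds GGCGCC at 4 places, bases 128, 145, 182 and 197. The Id3 window holds neither. The Id4 window has each motif 1 time, TGGGAA at base 6 (minus strand) and GGCGCC at base 103, and the Id2 window has GGCGCC at base 20. Of 32851 promoter windows of the same length, 25.6% hold TGGGAA, 6.38% GTGGGAA and 11.9% GGCGCC. All 4 windows are above the median G and C content of 52.7% over all windows, at 72.7% for Hes5, 73.3% for Id4, 63.3% for Id2 and 60% for Id3. The motif shares are over windows of any G and C content. A match describes the letters and is not evidence of binding.

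Hes5, a direct Notch target, was a gene of astrocyte-like and OPC-like cells. In astrocyte-like cells it stood at 501 CPM in the runner library (88 UMIs), 231 CPM in the aged library (18 UMIs) and 667 CPM in the control library (58 UMIs). In OPC-like cells it stood at 153 CPM in the runner library (9 UMIs), 603 CPM in the aged library (23 UMIs) and 362 CPM in the control library (12 UMIs). These ranges overlapped, so the order of both classes is not beyond the spread over libraries, but the median of every other class was at most 16.5 CPM. The class next below, Cajal-Retzius-like cells, reached 21.5 CPM at most and did not overlap with OPC-like cells. Together, astrocyte-like cells held 73.5% and OPC-like cells 19.7% of the 223 Hes5 UMIs in the cells used, from 12.9% and 3.97% of the cells. The OPC-like cells had 46, 29 and 40 UMIs of Pdgfra, the receptor that defines precursors, in the runner, aged and control libraries. The 15 astrocyte markers summed to 2765, 2070 and 2593 CPM in the runner, aged and control OPC-like cells, with 12, 8 and 9 of them detected. Among these the glutamate transporter Slc1a2 had 28, 9 and 14 UMIs, while the connexin Gja1 had 0 in all 3 libraries.

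Hes1, the other Notch target, was highest among the 7 large classes in astrocyte-like cells. It stood there at 324 CPM in the runner library, 372 CPM in the aged library and 207 CPM in the control library (57, 29 and 18 UMIs). OPC-like cells came next at 50.9, 157 and 60.3 CPM in the runner, aged and control libraries, from 3, 6 and 2 UMIs, and their range did not overlap with that of astrocyte-like cells. Microglia-like cells followed with 29.4, 26.9 and 11.1 CPM. In neuroblast-like and Cajal-Retzius-like cells Hes1 was at 0 UMIs in all 3 libraries, which in the 171 runner neuroblast-like cells leaves room for at most 10.8 CPM (Poisson 95%). Among the small classes, the 16 control endothelial-like cells had 6 Hes1 UMIs, or 279 CPM (102 to 608). Hes1 and Hes5 thus shared their first and second classes by median, astrocyte-like and OPC-like cells, which were separated in range for Hes1 and not for Hes5.

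Id4, the Id gene tied most closely to stem cell quiescence in the dentate gyrus, was highest in astrocyte-like cells too. Its levels were 211 CPM in the runner library (37 UMIs), 334 CPM in the aged library (26 UMIs) and 322 CPM in the control library (28 UMIs). Cajal-Retzius-like cells, reelin-producing neurons of the outer molecular layer, came second at 204 CPM (25 UMIs), 43.0 CPM (2 UMIs) and 132 CPM (8 UMIs) in the runner, aged and control libraries. The lowest astrocyte-like value and the highest Cajal-Retzius-like value, both of the runner library, lay inside each other's intervals (148 to 290 CPM and 132 to 301 CPM). No Id4 UMI was seen in the 74 OPC-like or 210 oligodendrocyte-like cells. Neuroblast-like cells, at 11.7, 108 and 44.7 CPM from 4, 2 and 2 UMIs, overlapped with the Cajal-Retzius-like range, so the second place is not beyond the spread over libraries.

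Id3 was highest among the 7 large classes in astrocyte-like cells, at 199 CPM in the runner library, 308 CPM in the aged library and 184 CPM in the control library (35, 24 and 16 UMIs). In the aged library 1 cell held 11 of the 24 UMIs. OPC-like cells came next at 50.9, 78.6 and 60.3 CPM, without overlap. The 19 endothelial-like cells, 16 of them in the control library, held 56 of 172 Id3 UMIs (32.6%) and 49 of 82 Id1 UMIs (59.8%) from 1.02% of the cells used. In the 16 control endothelial-like cells Id3 stood at 1907 CPM (1369 to 2588) and Id1 at 1303 CPM (866 to 1883). Both genes are well-known BMP targets of endothelium. In astrocyte-like cells Id1 had 5, 5 and 1 UMIs in the runner, aged and control libraries, or 28.5, 64.2 and 11.5 CPM, and overlapped with the oligodendrocyte-like range.

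Id2 was the broad member of the family. Neuroblast-like cells were at 814 CPM in the runner library, 700 CPM in the aged library and 1027 CPM in the control library, and astrocyte-like cells at 808, 616 and 541 CPM. Microglia-like cells had 776, 417 and 548 CPM and OPC-like cells 356, 707 and 452 CPM. Cajal-Retzius-like cells had 204, 473 and 231 CPM and granule neuron-like cells 172, 242 and 149 CPM. The classes overlapped in their ranges at each step of the order down to granule neuron-like cells. Only oligodendrocyte-like cells, at 28.5, 27.0 and 0 CPM, were separated from the class above them. The cycling cells had 730 CPM in the runner library (15 cells) and 1113 CPM in the control library (10 cells), where 1 cell held 14 of 21 UMIs. They carried markers of both microglia and neuroblasts. The microglia marker C1qa was at 2043 CPM in the runner library and 1378 CPM in the control library, and the neuroblast marker Sox11 was among the top genes. Microglia-like cells held 47.8% of all Id2 UMIs.

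**Figure D1:**
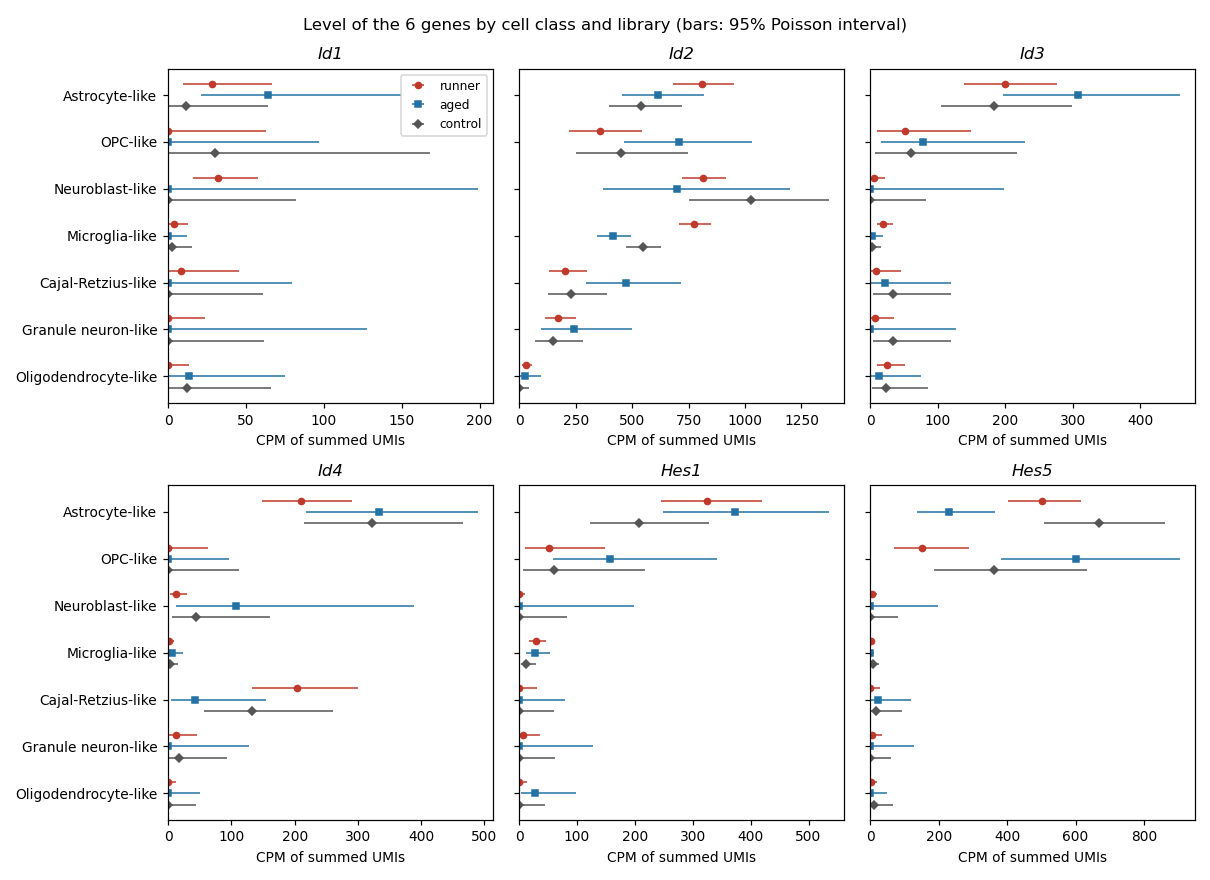
Level of each gene, in CPM of summed UMIs, in the 7 classes with at least 10 cells in each library. Points are libraries (runner, aged, control) and bars are 95% Poisson intervals. Id3, Id4, Hes1 and Hes5 have their highest points in astrocyte-like cells, apart from the aged Hes5 point at 603 CPM in OPC-like cells. For Id2 only oligodendrocyte-like cells are separated in range from the class above them.

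Set against all other cells of the same library, Id3, Id4, Hes1 and Hes5 were at least 2-fold higher in astrocyte-like cells in each of the 3 libraries. That was 4 of the 6 genes, where 6.97% of 11094 genes with at least 20 UMIs met the same rule. The ratios to the other cells were 47.3 in the runner library, 5.03 in the aged library and 25.4 in the control library for Hes5. Those for Id3 were 11.8, 8.04 and 2.52, the last of them in the library that held most endothelial-like cells. Id2 stood at 1.52, 1.51 and 1.21. In OPC-like cells Hes5 alone met the rule, at 2.74, 17.8 and 4.17, where 6.37% of genes did.

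Detection per cell gave the same picture at equal depth. After each cell was thinned to 1000 UMIs, which left out 35 runner, 17 aged and 15 control astrocyte-like cells, Hes5 had a UMI in 37.1% of 89 runner, 28.6% of 35 aged and 40.8% of 49 control cells. Without thinning the shares were 39.5%, 30.8% and 45.3%. Microglia-like cells, which should lack Hes5, had it in 0.331%, 0% and 1.03% of 302, 134 and 195 thinned cells. Hes5 was above this level in astrocyte-like cells of each library. The source of the few UMIs in microglia-like cells was not tested. Hes1 was detected in 25.8% of runner, 37.1% of aged and 14.3% of control astrocyte-like cells, against 3.31%, 2.24% and 1.54% of microglia-like cells. Id4 was detected in 16.9%, 20% and 28.6% of astrocyte-like cells and in at most 0.746% of microglia-like cells. Id2 was common in both classes, at 48.3%, 48.6% and 36.7% of astrocyte-like and 34.8%, 26.1% and 29.7% of microglia-like cells, the astrocyte-like share being higher in 3 of 3 libraries. The unthinned median depth was 1288 UMIs per astrocyte-like cell.

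**Figure D2:**
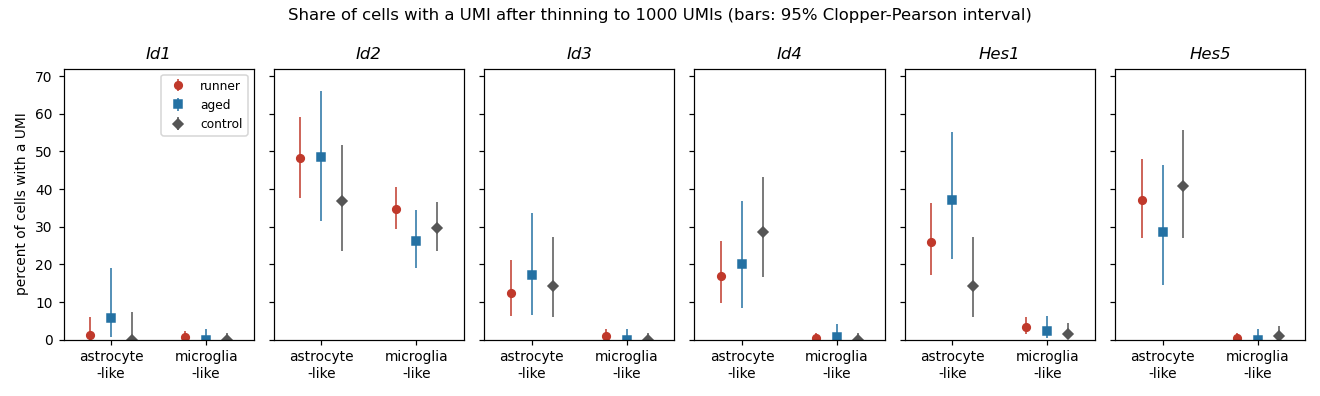
Percent of cells with a UMI of each gene after thinning to 1000 UMIs, in astrocyte-like and microglia-like cells of the runner, aged and control libraries. Bars are 95% Clopper-Pearson intervals. Hes5 was seen in 28.6% to 40.8% of astrocyte-like cells and in at most 1.03% of microglia-like cells, whereas Id2 was common in both classes.

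The comparison of runner with control sets 1 library beside another, so running cannot be told apart from other differences between these libraries. The runner and aged comparisons use the same control library. In astrocyte-like cells 1 of the 5 genes with at least 20 UMIs in both libraries together was at least 1.5-fold higher in the runner library, Hes1, and 1 was at least 1.5-fold lower, Id4. Of 2009 genes tested in this class, 29.5% passed 1.5-fold in either direction, 19.4% higher and 10.1% lower, so 2 of 5 is near the background. The Hes1 ratio was 1.57 (0.909 to 2.83) and the Id4 ratio 0.654 (0.389 to 1.11), and both intervals hold 1. Without the richest cell of each library Hes1 was at 1.47, and outside the upper quartile of dissociation stress genes (described below) at 1.31, both short of the fold. The interval of Id2 excluded 1, at 1.49 (1.07 to 2.13), and 5.13% of tested genes had an interval above 1. Hes5 stood at 0.751 (0.533 to 1.06) and Id3 at 1.08 (0.583 to 2.09). The median over the 5 genes was 0.11 on the log2 scale, against 0.07 over all 2009 genes. Id4 was lower in the runner library in cells with at least 3 radial glia markers (0.695) and in cells with fewer (0.489).

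In aged against control, Hes5 was the gene that stood apart. Its level of 231 CPM in aged astrocyte-like cells (137 to 365) against 667 CPM in control cells (507 to 863) gave a ratio of 0.346 (0.192 to 0.596). Of 1157 genes tested in this class, 0.432% had a lower ratio. The ratio did not rest on 1 cell. The richest cell held 2 of 18 UMIs in the aged library and 8 of 58 in the control library, and without these cells the ratio was 0.362. Hes5 was detected in 16 of 52 aged cells (30.8%, 18.7 to 45.1) and 29 of 64 control cells (45.3%, 32.8 to 58.3). These intervals overlapped. UMIs per cell with Hes5 were lower too, at 18 UMIs in 16 aged cells and 58 in 29 control cells. Hes1, the other Notch target, was higher at 1.80 (0.965 to 3.44), with 372 CPM in aged and 207 CPM in control cells, but outside the upper stress quartile it was at 1.41, short of the fold. Id3 was at 1.67 (0.853 to 3.37), but without the richest cell of each library it was 1.05. With cells called one by one from their markers it was below 1. That rule let in 4 endothelial-like cells of the control library and 0 of the aged library. Control Id3 UMIs went from 16 to 32 under it, while aged ones stayed at 24. Id2 was at 1.14 and Id4 at 1.04, with intervals that hold 1. In all, 2 of 5 genes, Hes1 and Id3, were at least 1.5-fold higher and 1, Hes5, at least 1.5-fold lower with all cells, where 27.4% of genes passed in either direction, 13.4% higher and 14% lower.

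**Figure D3:**
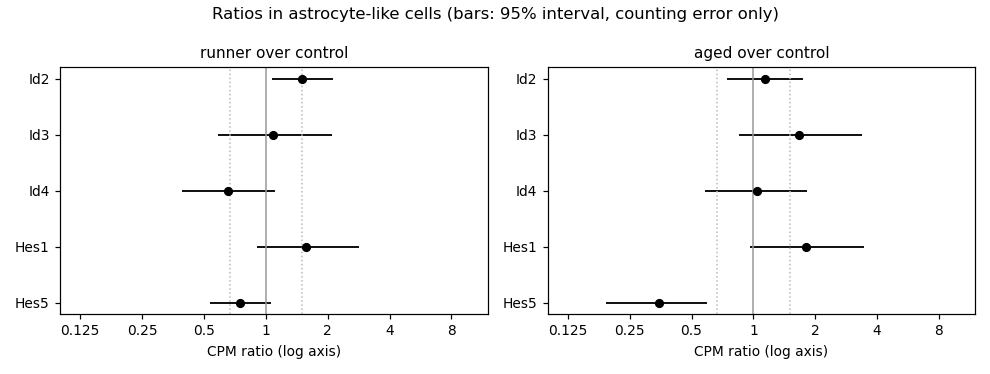
CPM ratios in astrocyte-like cells for the 5 genes with at least 20 UMIs, runner over control on the left and aged over control on the right, on a log axis. Bars are 95% intervals of counting error, the solid line is 1 and the dotted lines are 1.5-fold. Hes5 in the aged library, at 0.346, is the point farthest from 1.

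Summed markers of other cells differed between the astrocyte-like groups. The 13 microglia markers summed to 950 CPM in the runner library, 847 CPM in the aged library and 403 CPM in the control library, with 13, 11 and 10 of them detected. The 13 granule neuron markers summed to 433, 1104 and 541 CPM, with 9 detected in each library, and Camk2a gave 59 of the 86 UMIs in the aged library. The 12 listed radial glia markers summed to 4001 CPM in the runner library, 3107 CPM in the aged library and 2462 CPM in the control library. The 15 genes of dissociation stress summed to 3022, 2119 and 2117 CPM. The part of these differences in the ratios was not tested, apart from the splits by stress and radial glia markers below.

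In other classes some of these ratios went the same way as in astrocyte-like cells and others went the other way. Hes5 in OPC-like cells stood at 1.67 (0.795 to 3.67) in aged against control and at 0.422 (0.157 to 1.09) in runner against control. In OPC-like cells 2 of 2 genes tested were at least 1.5-fold higher in the aged library, Hes5 and Id2 (1.56), where 32.4% of genes passed in either direction and 13.4% were higher. For runner against control 1 of 2 was lower, Hes5, where 32.4% passed in either direction and 14.3% were lower. In Cajal-Retzius-like cells Id4 was at 1.54 (0.674 to 3.95) in the runner library, 1 of 2 genes past 1.5-fold against 28.6% of all genes. Id2 was there at 2.04 (1.0002 to 4.32) in the aged library, with 22 UMIs against 14, where 32.3% of genes passed. None of these pairs of ratios was tested for a difference between classes.

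Microglia-like cells gave the firmest Id2 values, from 448 runner, 124 aged and 197 control UMIs. The ratio was 1.42 (1.19 to 1.68) for runner against control and 0.760 (0.602 to 0.957) for aged against control, both short of 1.5-fold, where 23.6% of genes passed for runner and 26.1% for aged. The runner ratio was uneven over the microglia-like clusters. In the Rgs1-led cluster Id2 was at 813 CPM in 162 runner cells, 286 CPM in 81 aged cells and 374 CPM in 84 control cells, a runner ratio of 2.18 (1.56 to 3.09). In the cluster of 183 cells led by C1qa, with Trem2 and Gpr34 also among its top genes, it was at 404 CPM in the runner library, 477 CPM in the aged library and 531 CPM in the control library, a runner ratio of 0.760 (0.483 to 1.19). The Rgs1-led cluster made up 45.9% of runner, 40.3% of aged and 34.4% of control microglia-like cells. In the Ccl4-led cluster Id2 was highest, at 1057 CPM in 89 runner, 860 CPM in 16 aged and 820 CPM in 48 control cells. Its ratios there were 1.29 (0.978 to 1.72) for runner and 1.05 (0.658 to 1.63) for aged. That cluster made up 25.2% of runner, 7.96% of aged and 19.7% of control microglia-like cells. In a cluster of 100 cells the ratios were 1.27 (0.745 to 2.14) and 0.493 (0.198 to 1.08). How far these shares enter the pooled ratios was not tested. Hes1 in microglia-like cells had 17, 8 and 4 UMIs, a runner ratio of 2.65 (0.863 to 10.8), so that 1 of 2 genes tested there passed. In neuroblast-like cells, whose median gene ratio for runner was 1.09, Id2 stood at 0.792 (0.578 to 1.11) in runner and 0.682 (0.338 to 1.28) in aged against control. It did not pass 1.5-fold in either, where 41.8% of genes passed for runner and 30.9% for aged.

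**Figure D4:**
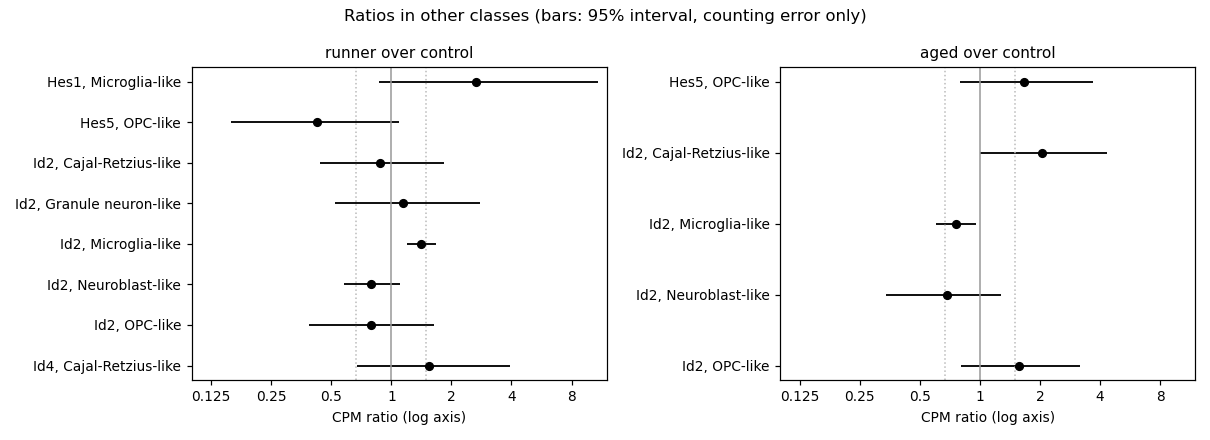
CPM ratios outside astrocyte-like cells for every gene and class with at least 20 UMIs in both libraries together, runner over control on the left and aged over control on the right, on a log axis. Bars are 95% intervals of counting error. The narrow bars are Id2 in microglia-like cells, at 1.42 and 0.760.

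Within astrocyte-like cells, Id2 and Id3 were low where dissociation stress genes were high. The cells were split by the summed CPM of 15 stress genes such as Fos and Jun. The upper quartile held 34 runner, 10 aged and 16 control cells. Comparing it with the rest was chosen after the data were seen. Id2 was at 369 CPM in the upper quartile and 1018 CPM in the rest of the runner library, 122 and 747 CPM in the aged library, and 304 and 626 CPM in the control library. Id3 was at 52.7 and 269 CPM in the runner library, 61.2 and 374 CPM in the aged library, and 43.4 and 235 CPM in the control library. The ratios of upper quartile to rest were 0.363, 0.164 and 0.486 for Id2 and 0.196, 0.164 and 0.185 for Id3, and the intervals hold 1 for Id2 in the control library and for Id3 in the aged and control libraries. Of 2640 genes, 3.98% were at least 1.5-fold lower in each of the 3 libraries, and 2 of the 5 genes with at least 20 UMIs were. The upper-quartile Id3 values rest on 3, 1 and 1 UMIs.

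Hes5 had unlike ratios of upper quartile to rest by library in this split, at 0.500 (0.276 to 0.858) in the runner library. The intervals held 1 in the aged library (0.753, 0.140 to 2.66) and in the control library (1.58, 0.876 to 2.76). The upper quartile was at 299 CPM in the runner library, 184 CPM in the aged library and 912 CPM in the control library, and the rest at 597, 244 and 579 CPM. The runner ratio to control was therefore 0.328 (0.162 to 0.652) in the upper quartile and 1.03 (0.684 to 1.58) in the rest. The aged ratio to control was 0.201 (0.0384 to 0.674) in the upper quartile and 0.421 (0.215 to 0.786) in the rest. The upper-quartile value rests on 3 UMIs in 10 aged cells and 21 UMIs in 16 control cells. Hes5 was thus lower in the aged library in both sets of cells, while for runner the interval held 1 in the rest. The difference between the sets was not tested. Hes1 in the upper quartile was at 404 CPM in the runner library, 612 CPM in the aged library and 174 CPM in the control library (23, 10 and 4 UMIs). In the rest, Id2 for runner against control passed 1.5-fold at 1.63 (1.13 to 2.39).

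Id4 and Hes5 had ratios of opposite sign in a split by radial glia markers, with level intervals of both sets of cells that overlapped for both genes in every library, and no difference was tested. Cells with at least 3 of the 12 listed markers numbered 51 in the runner library, 17 in the aged library and 16 in the control library, and the markers include Hopx, Thrsp and Fabp7. Id4 was at 287 CPM in these cells and 135 CPM in the others of the runner library, 377 and 295 CPM in the aged library, and 414 and 276 CPM in the control library. Its ratio was above 1 in 3 of 3 libraries (2.13, 1.28 and 1.5, the last 2 with intervals that hold 1), as it was for 20% of 2640 genes. Hes5 was at 448 and 552 CPM in the runner library, 108 and 344 CPM in the aged library, and 586 and 708 CPM in the control library. Its ratio was below 1 in 3 of 3 libraries (0.812, 0.313 and 0.827, with intervals that hold 1 in the runner and control libraries), as it was for 13.1% of genes. In cells with at least 3 markers the aged Hes5 ratio to control was 0.184 (0.0449 to 0.563) from 4 and 17 UMIs, and in the other cells 0.486 (0.245 to 0.910). Cells with at least 3 markers were deeper, with a median of 1631, 1883 and 1783 UMIs, against 1122, 1080 and 1205 in the others.

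**Figure D5:**
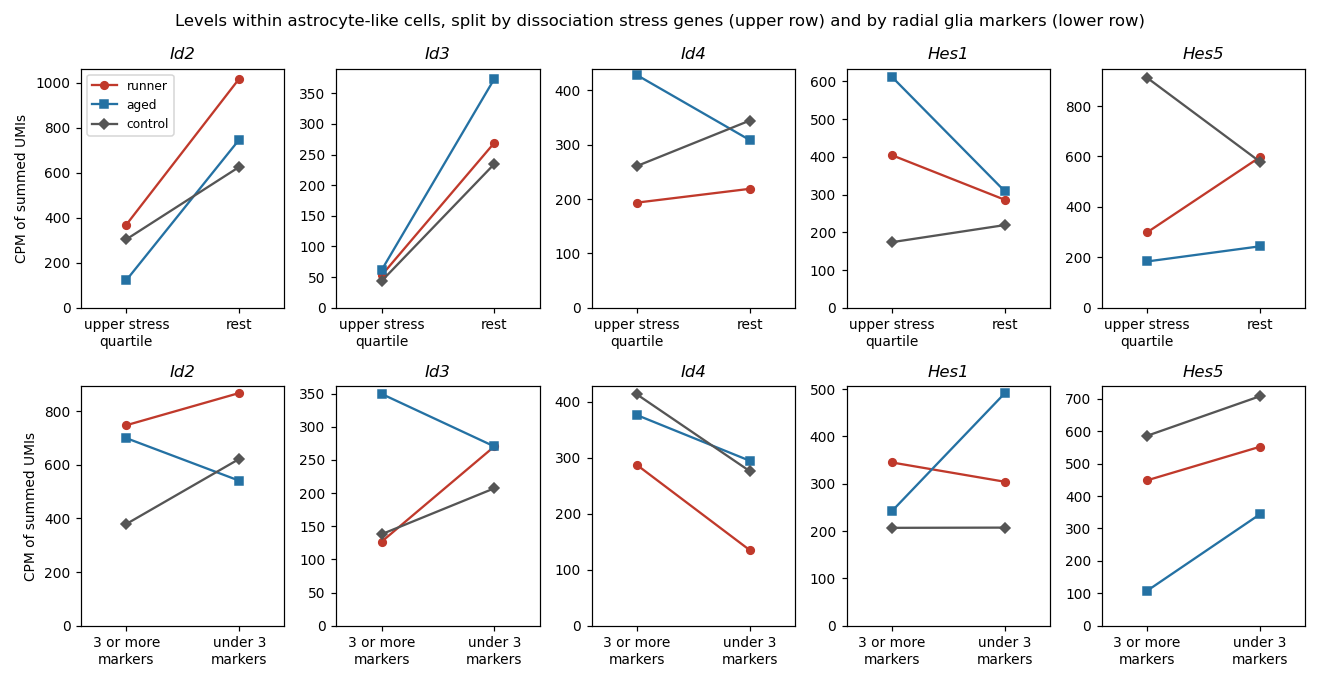
Levels of 5 genes within astrocyte-like cells, in CPM of summed UMIs, split by summed dissociation stress genes (upper row) and by radial glia markers (lower row). Each line joins both sets of cells of 1 library (runner, aged, control). Id2 and Id3 are lower in the upper stress quartile in 3 of 3 libraries, and Id4 is higher with at least 3 radial glia markers in 3 of 3, with overlapping intervals.

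Most astrocyte-like cells showed at least 1 of the 6 genes, 83.1% in the runner library, 84.6% in the aged library and 82.8% in the control library. At 1000 UMIs the shares were 83.1%, 88.6% and 79.6%. In most pairs, a gene was seen in similar shares of the cells with and without the other. Correlation of detection over cells was highest for Id3 with Id1 (0.315) and Id3 with Id2 (0.229) with all UMIs. Other pairs also differed, such as Hes5 in 50% of cells with Id3 and 34.2% without it at 1000 UMIs. At 1000 UMIs Id2 was detected in 19 of 24 cells with Id3 (79.2%) and in 59 of 149 cells without it (39.6%). By library these shares were 63.6% and 46.2% in the runner library, 100% and 37.9% in the aged library, and 85.7% and 28.6% in the control library, from 11, 6 and 7 cells with Id3. With all UMIs, Id3 was in 7 of 10 cells with Id1 (70%) and in 30 of 230 without it (13%), and only 3 cells kept an Id1 UMI after thinning. By contrast, at 1000 UMIs Hes5 was in 15 of 43 cells with Hes1 (34.9%) and in 48 of 130 without it (36.9%). The cells are not replicates, and the pairs were picked out after the values were seen.

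Across 21 points, each 1 class in 1 library, the pattern most like that of a gene was sought among 4704 genes with at least 100 UMIs. The measure was Pearson's r of log2(CPM + 20), and the points share libraries and differ in depth. For Hes5 the closest were Ddah1 (0.943), Cspg5 (0.933) and Ednrb (0.931). For Hes1 they were Mfge8 (0.922), F3 (0.913) and Smpdl3a (0.908), and for Id3 they included Clu (0.913) and Fgfr3 (0.910). Several of these, such as Mfge8 and Clu, are common astrocyte genes. For Id4 the closest were 2610203C20Rik (0.828), Msi2 (0.821) and Thrsp (0.815), and Thrsp is among the radial glia markers. Id2 had looser neighbours, Cpne3 (0.806), Mir99ahg (0.778) and Lrrc8a (0.774), and so did Id1, with 29 UMIs at these points, in Gstm1 (0.723), Gm26917 (0.718) and Tlcd1 (0.701). Among the 6 genes, Hes1 and Hes5 (0.875), Hes1 and Id3 (0.873) and Hes5 and Id3 (0.866) were closest, and Hes5 and Id4 stood at 0.317.

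The wider Notch and BMP pathways were thinly covered in astrocyte-like cells. Of 94 listed genes, 85 were in at least 1 table, and 19 reached 20 UMIs for runner against control and 12 for aged against control. None of the 13 ligands and none of the 8 mediators such as Rbpj and Smad4 did so. For runner against control 4 of 19 were at least 1.5-fold higher and 0 lower, where 19.4% of all genes were higher and 10.1% lower, so the count of higher genes is near the background. The list had a median of 0.22 on the log2 scale against 0.07 over all genes. The genes past the fold were Nfia (1.52, 0.959 to 2.50), a glial transcription factor, the Notch modulators Dtx3 (1.73, 0.895 to 3.61) and Lfng (1.53, 0.778 to 3.21), and the bHLH repressor Bhlhe41 (1.73, 0.676 to 5.24). All 4 intervals hold 1. For aged against control 4 of 12 were higher and 2 lower, where 13.4% of all genes were higher and 14% lower, with a median of 0.31 against -0.03 over all genes. Sox9, a glial transcription factor, was at 1.73 (1.06 to 2.86) and Hopx, a radial glia marker, at 1.58 (1.06 to 2.35), while the intervals of Nfia, at 1.52 (0.879 to 2.65), and Lfng, at 1.58 (0.712 to 3.63), hold 1.

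Of the 10 listed receptors, Notch2 was the only 1 with enough UMIs to be tested in aged against control, and it was lower. It had 77.0 CPM in aged astrocyte-like cells (6 UMIs) and 219 CPM in control cells (19 UMIs), a ratio of 0.352 (0.115 to 0.918). The ratio of Hes5 was 0.346, while Hes1 and Lfng went the other way at 1.80 and 1.58. A link between these ratios was not tested. Psenen, a subunit of the gamma-secretase that cleaves Notch, was at 0.656 (0.358 to 1.17). In the runner library Notch2 was at 182 CPM, a ratio of 0.833, and Notch1 at 1.17. The E protein Tcf4, a partner of Id proteins, was at 666 CPM in the runner library, 835 CPM in the aged library and 736 CPM in the control library, with ratios of 0.904 and 1.13.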

How the data were processed

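The labels give 3 libraries made with the 10x Genomics Chromium 3' kit, version 2, 1 per group. The authors deposited raw UMI counts per gene and barcode, whole numbers without normalization. Cell Ranger 2.1.1, Seurat 3.1.0 and build GRCm38 are named per the submitters' processing notes, while no source used here gives the annotation, the strand setting or the cell calling rule.

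The filter of at least 200 genes and under 10% mitochondrially encoded UMIs kept 1876 barcodes, less 10 called as doublets by Scrublet at an expected rate of 0.05. Counts scaled to 10000 per cell gave 2000 variable genes without the 6 studied, 30 principal components, 15 neighbours and Leiden clusters at resolution 1, without batch correction. Clusters were named from marker lists by a rule whose thresholds were set on these data in earlier work, and a name means "like" that type. UMIs were summed per class and library, scaled to CPM, and given with exact Poisson 95% intervals. Ratios carry exact conditional binomial intervals and shares Clopper-Pearson intervals, which cover counting error only. The ratio and likeness measures were tested on simulated data. A gene counts as past the fold at 1.5-fold with at least 20 UMIs in both libraries together.

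The 6 genes and all lists were chosen with earlier results of these data known. Named genes are the 6, for each the 3 genes with the most similar pattern (1 for Id3 is not reported here), and pathway genes past the fold, up to 6 per comparison. Notch1 and Notch2 for runner and Tcf4 for both were added after their values were seen. Python 3.11.15 was used with pandas 2.3.3, matplotlib 3.10.9, NumPy 2.4.6 and SciPy 1.17.1, and for clustering Scanpy 1.11.5 with scikit-learn 1.9.0, igraph 0.11.9 and leidenalg 0.10.2. Alternatives covered clustering, filters, doublets, cell calling, scaling, thinning, stress and the UMI and fold limits. Those without the richest cell, those for the other classes, thinned co-detection, and the ratio of stress quartiles scaled without the stress genes were chosen after seeing the data, while leaving out the upper stress quartile was planned.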

Additional observations from a re-analysis of the deposited data

Results flagged for a closer look

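Hes5 went opposite ways by class in aged against control, at a CPM ratio of 0.346 (0.192 to 0.596) in astrocyte-like cells and 1.67 (0.795 to 3.67) in OPC-like cells, where the interval holds 1. The difference between the classes was not tested, since each group is 1 library. Id4 went opposite ways in runner against control, at 0.654 (0.389 to 1.11) in astrocyte-like cells and 1.54 (0.674 to 3.95) in Cajal-Retzius-like cells. Both intervals hold 1, and this difference was not tested either. Hes1 was also flagged in barcodes outside the filter. Levels in barcodes with 10 to 30% mitochondrially encoded UMIs are given in CPM of all other UMIs. Hes1 stood there at 87.9 in the runner library (54.4 to 134), 151 in the aged library (105 to 211) and 52.9 in the control library (31.9 to 82.6). In the cells used it was at 45.5, 79.0 and 42.4 on this scale. A higher level outside the filter was not particular to Hes1. Id4 was at 138, 138 and 145 in these barcodes and at 40.3, 56.2 and 56.1 in the cells used. Id3 and Hes5 were higher there too in each library, while Id1 was lower in the runner library (8.37 against 15.2).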

How the results depend on the processing

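No paired analysis was possible because each group is 1 library, and for the same reason no replicate could be left out. Values below are log2 ratios in astrocyte-like cells unless said otherwise. Keeping the 6 genes in the clustering and both other Leiden resolutions returned the same 124, 52 and 64 astrocyte-like cells, so these 3 settings could not move values of that class. Of 356 alternative values, 83 from these settings were identical to the reported ones. Of the other 273, 252 stayed inside the interval of the reported value or within 1.5 times the reported count. At resolution 0.5 the OPC-like log2 ratios for aged against control were 1.42 for Hes5 and 1.33 for Id2. The limit of 5% mitochondrially encoded UMIs moved most. It kept 66 runner, 15 aged and 19 control cells and only 1 control UMI of Hes1. For runner against control it gave Id1 -1.94, Hes1 3.46 and Hes5 -1.23. For aged against control it gave Id2 -1.39, Id3 -2.32 (direction turned), Id4 -0.93, Hes1 3.49 and Hes5 -2.51, and in Cajal-Retzius-like cells Id2 2.19. Cells called one by one from markers gave Id3 -0.079 for aged against control (direction turned) and Id1 -1.95 for runner against control. That rule let in 4 control endothelial-like cells, and gave a median Id3 level of 289 CPM. The aged Hes5 ratio lay between 0.175 and 0.466 under 13 alternatives, 3 of them those clustering settings. The number of genes past the fold for runner against control was 1 with scaling by the median ratio, 4 at a looser fold and 0 at 2-fold. For aged against control it was 1 at 2-fold. With at least 10 UMIs, 5 of 35 pathway genes were higher and 3 lower in runner (24.4% and 14.9% of all genes), and 9 of 26 higher and 7 lower in aged against control (21.1% and 19.9%). Thinned shares of Id1 were 1.12% in the runner library and 0% in the control library. Without the richest cells Id3 for aged against control was 0.07. Depth limits Id1, Id3 and all OPC-like values, which rest on few UMIs.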

Other observations

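Id4 was the gene found most outside the cells used. Barcodes with at least 30% mitochondrially encoded UMIs held 300 of its 568 UMIs in all barcodes (52.8%), and 43.0% in the runner library, 66.2% in the aged library and 48.1% in the control library. For the other genes the share over all 3 libraries lay between 6.75% for Id1 and 25.6% for Hes1. UMIs of these genes also lay outside the cells used. Those cells held 142 of 568 Id4 UMIs. Of Id1, Id2 and Id3 they held 82 of 163, 1608 of 2525 and 172 of 402. Of Hes1 and Hes5 they held 154 of 312 and 223 of 451. Barcodes at that 30% limit or above held 766971 of 2905098 runner, 793745 of 1660792 aged and 585069 of 1719312 control UMIs not mitochondrially encoded. In CPM of UMIs that were not mitochondrially encoded, Id4 was at 104 in these barcodes and 40.3 in the cells used of the runner library, 168 and 56.2 in the aged library, and 149 and 56.1 in the control library.

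Among microglia-like cells, 8 of the 11 Id3 UMIs of the runner library lay in 21 cells of a shallow cluster led by the globin gene Hbb-bs, which had a median of 774 UMIs per cell over all libraries. The runner library held 11 Id1 UMIs in 9 of 171 neuroblast-like cells, or 32.3 CPM (16.1 to 57.8), while the 12 aged and 33 control neuroblast-like cells had 0, with upper limits of 199 and 82.4 CPM that lie above the runner level.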
